A study of Mus musculus with 27 samples.

Results

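The genes described here code for the proteasome and for the proteins that assemble, cap or inhibit it, in mouse erythroleukaemia (MEL) cells. They were taken by symbol: every row whose symbol starts with Psma, Psmb, Psmc, Psmd, Psme, Psmf or Psmg followed by a digit, without Psmb8 and Psmb9. The same 47 genes were found in each of the 5 RNA-Seq tables, which list between 16465 and 18519 genes. MEL cells are a clonal line of erythroid progenitors arrested before terminal maturation, and every library analysed here comes from them. In the Cbfa2t3 knockdown (KD) the corepressor ETO2, which Cbfa2t3 encodes, was depleted with lentiviral shRNA sh2 (2 libraries) or sh3 (2 libraries) for 72 h, against 2 control libraries with a non-targeting shRNA. In the Irf2bp2 KD the corepressor IRF2BP2 was depleted with sh1 for 72 h (2 libraries, 2 controls), and in the Kdm1a KD the histone demethylase LSD1 was depleted by shRNA for 72 h (2 libraries, 1 control). In the Gfi1b KD the repressor GFI1B was targeted with siRNA (2 libraries, 2 controls with a non-targeting siRNA). The study used 2 siRNAs and harvested at 48 or 72 h, and the labels do not tell these libraries apart. In MEL differentiation, cells induced for 96 h (2 libraries) were compared with non-induced cells (2 libraries); the inducer is not given in the sources used here. The labels call the shRNA and siRNA controls WT.

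The proteasome degrades proteins tagged with ubiquitin. Its core particle is a barrel of stacked alpha and beta rings, with the catalytic sites on beta subunits inside, and its regulatory particle binds ubiquitin chains, removes them and unfolds the substrate with a ring of ATPases. Other caps (PA28 and PA200) can take the place of the regulatory particle, and in erythroid cells the proteasome takes part in clearing proteins as the cell matures.

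Of the 47 genes, 7 code for the alpha ring (Psma1 to Psma7) and 7 for the beta ring (Psmb1 to Psmb7), which together are called the core here (14 genes). The regulatory particle is represented by 17 genes, 6 for its ATPases (Psmc1 to Psmc6) and 11 for its other subunits. The remaining genes are 2 alternative beta subunits (Psmb10, of the immunoproteasome, and Psmb11, of the thymus), 4 chaperones of core assembly (Psmg1 to Psmg4), 3 chaperones of the base of the regulatory particle (Psmd5, Psmd9, Psmd10), 5 genes of other caps (Psme1 to Psme4 and Psme2b), the inhibitor Psmf1 and Psmc3ip, which matches by symbol only and codes for a meiotic recombination factor. Psme2 and Psme2b are near-identical in sequence, so that their counts could be split by the read assignment and are uncertain.

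The 13 libraries of the shRNA tables hold between 44.5 and 57.7 M counted reads each, and the 8 libraries of the Gfi1b and MEL differentiation tables between 9.93 and 19.6 M. The 47 genes take between 0.452 and 0.987% of the reads of a library. Replicates differed well beyond sampling noise, and no pair looked like copies of 1 library. The study states at least 2 independent biological replicates, the labels name no separate cultures, and p-values measure only the spread between these libraries. Cbfa2t3 fell from 400.3 and 427 CPM (counts scaled to the size of the library) in the controls to between 123 and 244 CPM in the 4 KD libraries. For Kdm1a the values were 152 CPM (control) against 16.3 and 16.9 CPM (KD). Irf2bp2 fell from 116 and 119.7 CPM to 92.2 and 94.9 CPM. Gfi1b stood at 122 and 145 CPM in its controls, at 76.5 CPM in the library labelled Gfi1b KD replicate 2 and at 216 CPM in the library labelled Gfi1b KD replicate 1, above both controls. Myeloid markers (5 genes) summed to at most 0.461 CPM and lymphoid markers (3 genes) to at most 1.36 CPM in any library.

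Levels were compared between genes only on the authors' RPKM scale, which corrects for length. Over the 9 control libraries, Psmb4 (beta ring) had the highest median at 769 RPKM (range 408 to 832), followed by Psmd4, a ubiquitin receptor of the regulatory particle, at 505 RPKM (297 to 559). The ranges of these 2 genes overlap when the controls of all comparisons are pooled. Within each comparison the control mean of Psmb4 was above that of Psmd4. Both ranges lie above those of Psmb7 at 248 RPKM, Psma7 at 241 RPKM and Psma1 at 221 RPKM, which overlap one another. The other core genes had medians down to 100.4 RPKM for Psmb6. The middle of the medians of all 14 core genes was 197 RPKM, and the regulatory particle genes ran from 75.8 RPKM for Psmd13 to that of Psmd4, with a middle value of 116 RPKM. At the low end were the inhibitor Psmf1 at 21.1 RPKM, the base chaperone Psmd9 at 14.1 RPKM, Psmc3ip at 3.45 RPKM and Psmb11 at 0.113 RPKM. Subunits that assemble in equal numbers thus did not have equal mRNA levels in these tables.

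**Figure D1:**
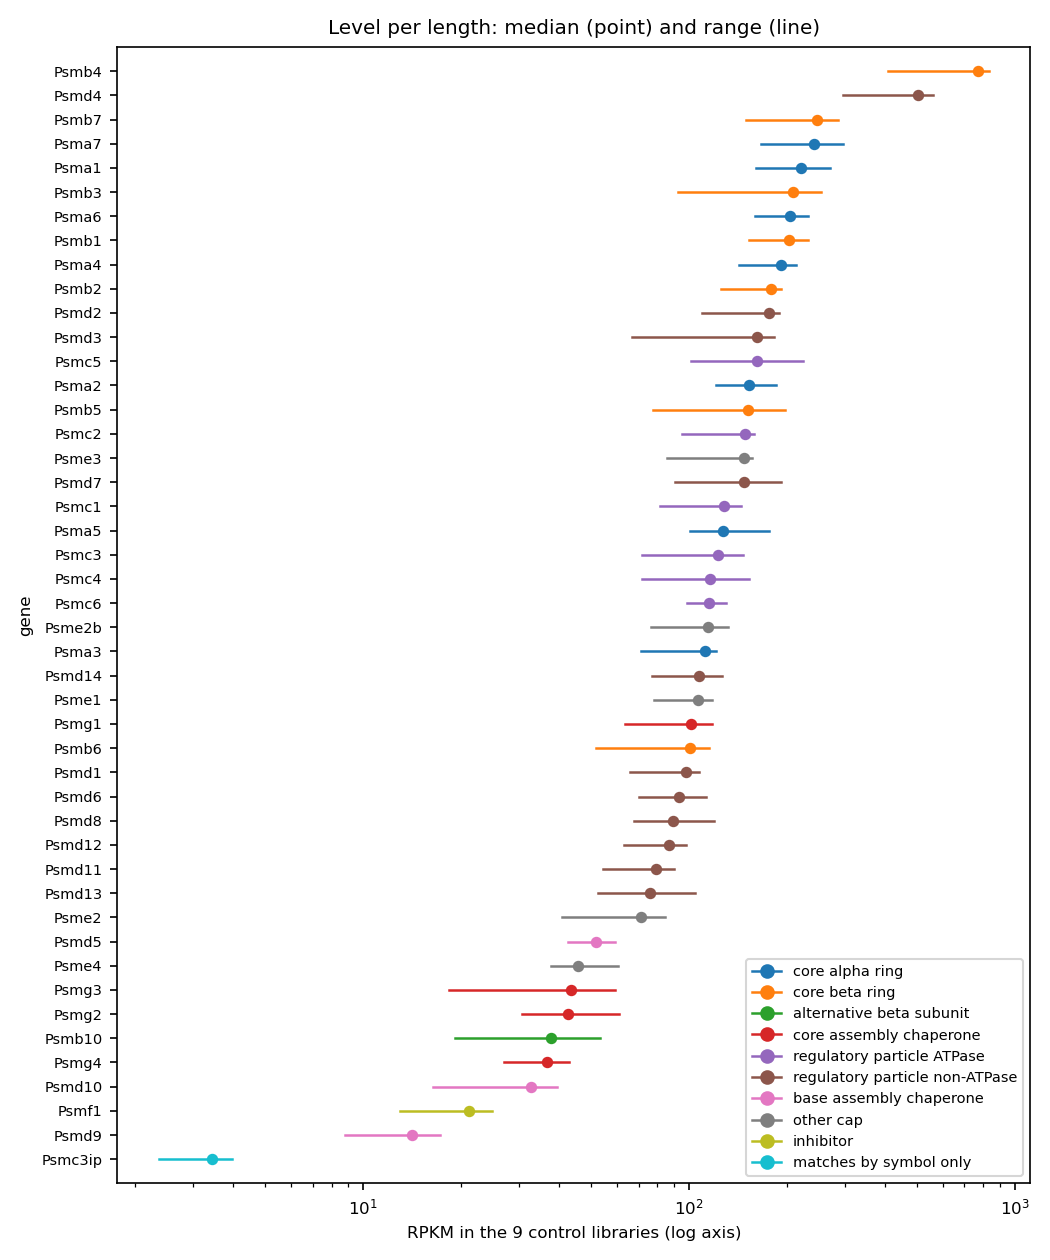
Level per length of the proteasome genes (RPKM, log axis; Psmb11 is left out) in the 9 control libraries, with the median as a point and the range as a line, coloured by role. Psmb4 and Psmd4 lie to the right of all others, and Psmf1, Psmd9 and Psmc3ip lie furthest to the left.

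Promoters were read to see what the genes share at their starts. RefSeq promoters (GRCm38.p6, 250 bases before to 50 after the start) were given for 40 of the 47 genes. The letters CCGGAAG, which ETS factors bind, were searched on both strands. They were found in 14 of the 40 promoters (35.0%), against 9.12% of all 27025 promoters and 19.1% of the promoters of genes tested in the Irf2bp2 KD. Of the regulatory particle promoters 9 of 14 hold them (64.3%), and of the core promoters 0 of 11. The core letters of the antioxidant response element, TGACNNNGC, known as the site through which NRF1 (Nfe2l1) drives proteasome genes, were in 6 of the 40 (15.0%), against 12.5% of all promoters and 15.0% of those of tested genes. CCAAT was in 14 of the 40 (35.0%), in 6 of 11 core (54.5%) and 4 of 14 regulatory particle promoters (28.6%), against 37.9% of all promoters and 39.6% of those of tested genes. A match in letters is a description and does not show that a factor binds. The promoters of 5 genes whose levels or changes are described here are shown as examples, each with CCGGAAG wholly before the start. Each line gives 150 bases that end at the start, on the strand of the gene, 5′ to 3′, with CCGGAAG in capitals. They are Psmc6 (chr14:45329674-45329823, plus strand), Psmd4 (chr3:95042615-95042764, minus strand), Psme3 (chr11:101316063-101316212, plus strand), Psme4 (chr11:30771625-30771774, plus strand) and Psmg1 (chr16:95990961-95991110, minus strand).
Psmc6: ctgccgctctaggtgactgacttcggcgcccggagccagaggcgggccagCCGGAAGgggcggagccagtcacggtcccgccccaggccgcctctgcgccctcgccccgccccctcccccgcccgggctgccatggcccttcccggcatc
Psmd4: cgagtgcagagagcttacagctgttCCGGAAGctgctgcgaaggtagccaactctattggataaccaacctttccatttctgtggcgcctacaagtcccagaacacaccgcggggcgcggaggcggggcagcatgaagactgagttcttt
Psme3: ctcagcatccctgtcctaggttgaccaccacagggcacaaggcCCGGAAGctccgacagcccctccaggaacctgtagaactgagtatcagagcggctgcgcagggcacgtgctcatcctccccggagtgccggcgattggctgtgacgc
Psme4: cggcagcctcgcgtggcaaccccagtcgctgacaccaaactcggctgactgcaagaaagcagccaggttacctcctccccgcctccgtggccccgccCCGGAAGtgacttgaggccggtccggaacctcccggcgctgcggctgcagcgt
Psmg1: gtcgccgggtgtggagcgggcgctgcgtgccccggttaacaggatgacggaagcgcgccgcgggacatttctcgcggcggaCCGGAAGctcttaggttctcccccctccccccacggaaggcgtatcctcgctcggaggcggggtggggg

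The ETO2 and IRF2BP2 site list has 13229 sites in mm9, in 3 classes: 1760 bound by ETO2 only, 2730 by both and 8739 by IRF2BP2 only. The list gives 1 fold of ChIP over IgG per site and does not name the antibody behind it. The IRF2BP2 ChIP of the study is 1 library, and the ETO2 ChIP comes from an earlier public data set and was not analysed here; the folds carry no replicate error. Of 46 of these genes with a start in the mm9 annotation, 17 (37.0%, exact 95% interval 23.2 to 52.5%, which covers counting error only) have the centre of a site within 5 kb of the start. The share was 18.1% of all protein-coding genes and 31.6% of those tested in the Irf2bp2 KD. By class, 16 of the 46 have an IRF2BP2-only site, 2 a shared site (Psme3 and Psmd4) and 1 an ETO2-only site (Psmf1). The core has 5 of 14 genes with a site and the regulatory particle 4 of 17. The highest fold of an IRF2BP2-only site was 29-fold at Psma5 (alpha ring), centred 18 bp before the start; the other IRF2BP2-only sites range from 2.45-fold at Psmg1 to 14-fold at Psmd11. Within 1 kb of the start the share was 32.6% of these genes, against 21.2% of tested genes and 11.5% of all protein-coding genes. Within 5 kb and at a fold at or above the median of the listed sites, 7.33, it was 13.0% of these genes, against 15.0% of tested genes. The gap to the tested genes thus depends on the setting.

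**Figure D2:**
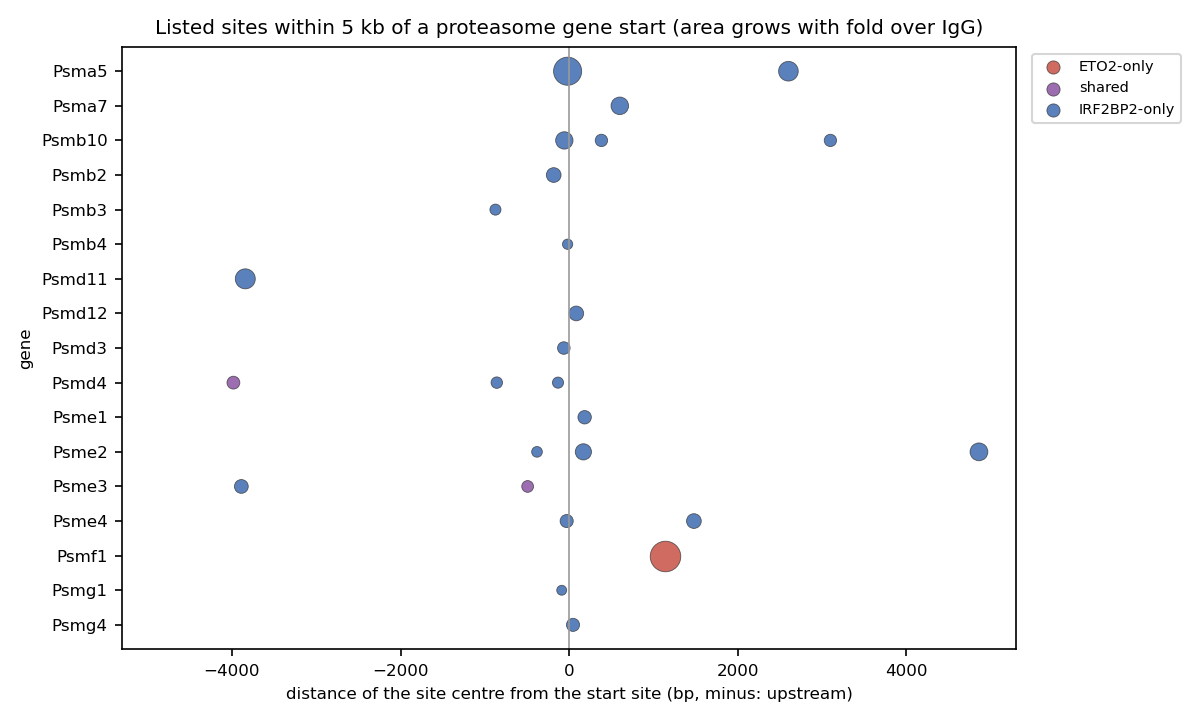
Distance in bp of the centre of each listed site from the start of the 17 genes that have one within 5 kb, with the class as colour and an area that grows with the fold over IgG. Most points lie near 0 and are IRF2BP2-only; the ETO2-only site of Psmf1 has 34.5-fold and lies 1137 bp after the start.

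Psmf1 codes for PI31, which inhibits the core particle in vitro. Its gene lies on the minus strand of chromosome 2 (mm9, start at 151569922), and its ETO2-only site (chr2:151568259-151569566) is intronic. The fold of 34.5 compares with a median of 8.75 over all ETO2-only sites. Psme3, which codes for PA28 gamma, a nuclear cap, lies on the plus strand of chromosome 11 (start at 101177527). Its shared site (chr11:101176817-101177944, 4.0-fold) is centred 492 bp before the start. That fold lies below the median of 10.25 over all shared sites. These sites are shown because both genes rose in both corepressor knockdowns. Each line gives the 300 bases around the site centre in mm9, on the strand of the gene, 5′ to 3′: chr2:151568636-151568935 (minus strand) for Psmf1 and chr11:101176886-101177185 (plus strand) for Psme3. Capitals mark GATAA, the letters that GATA1 binds, and in Psme3 also the stretch from a CTG to the GATAA 9 bases after it.
Psmf1: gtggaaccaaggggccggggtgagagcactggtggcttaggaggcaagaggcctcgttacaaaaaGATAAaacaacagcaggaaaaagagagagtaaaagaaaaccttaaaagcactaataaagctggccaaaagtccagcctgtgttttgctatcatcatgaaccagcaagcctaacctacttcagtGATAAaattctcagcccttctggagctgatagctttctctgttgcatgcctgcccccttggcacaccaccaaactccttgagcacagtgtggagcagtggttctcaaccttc
Psme3: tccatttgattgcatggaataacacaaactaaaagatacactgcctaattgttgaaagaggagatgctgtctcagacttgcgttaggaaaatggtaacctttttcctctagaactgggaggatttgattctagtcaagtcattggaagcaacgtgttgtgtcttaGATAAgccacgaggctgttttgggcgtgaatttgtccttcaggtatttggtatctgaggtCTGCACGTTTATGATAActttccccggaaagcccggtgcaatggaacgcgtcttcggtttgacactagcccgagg

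Windows of this kind hold GATAA on either strand in 85.7% of the ETO2-only, 87.7% of the shared and 46.6% of the IRF2BP2-only sites. A CTG and a GATAA after it, 7 to 9 bases apart on either strand, the spacing of the composite motif of TAL1 and GATA1, were in 29.9%, 30.5% and 6.75% of them. The letters differ from the study's motif, which takes A or G after GATA and asks for A or T before it. By its own motif search the study reports that motif at nearly all ETO2-only and shared sites and not at IRF2BP2-only sites. The searches are unlike, so the shares cannot be set side by side.

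The first comparison asks how the proteasome genes respond when ETO2 is depleted. In the Cbfa2t3 KD 6 of the 47 genes passed the test at an adjusted p of 0.05 (12.8%), against 11.4% of the 12537 genes tested. The inhibitor Psmf1, the cap gene Psme3 and the base chaperone Psmd9 rose (3 of 47, 6.38%; 5.47% of all genes rose). The cap genes Psme1, Psme2 and Psme2b fell (3 of 47; 5.88% of all genes fell). None of the 14 core and 17 regulatory particle genes passed, and their median log2 FC was -0.04 and 0.02, beside 0.00 for all genes. These are bulk libraries, in which fewer cells of a type and less RNA per cell cannot be told apart.

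Psmf1 had 87.4 and 84.0 CPM in the controls, 128 and 132 CPM with sh2 and 145 and 142 CPM with sh3. All 4 KD libraries lay above both controls, at a log2 FC of 0.67 (SE 0.07, 1.60-fold, adjusted p = 0.000517). It is the gene with the ETO2-only site shown above.

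Psme3 had 387 and 384 CPM in the controls, 452 and 472 CPM with sh2 and 536 and 513 CPM with sh3 (log2 FC 0.36, SE 0.08, adjusted p = 0.0184). Here too the groups did not overlap. Psmd9, which chaperones assembly of the ATPase ring, had 41.7 and 44.3 CPM in the controls and between 49.3 and 52.1 CPM in the KD libraries (log2 FC 0.25, SE 0.06, adjusted p = 0.0341). With the replicate number as a block Psmd9 did not pass in edgeR (adjusted p = 0.0505). Psmd9 lost its call in 4 of the 6 fits that left out a library and Psme3 in 2.

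Psme1 and Psme2 code for the alpha and beta subunits of PA28, the interferon-inducible cap. Psme2 had 66.3 CPM in both controls, 53.4 and 51.4 CPM with sh2 and 51.4 and 54.3 CPM with sh3 (log2 FC -0.33, SE 0.06, adjusted p = 0.00713). Psme1 had 103 and 107.5 CPM in the controls, 89.6 and 88.4 CPM with sh2 and 87.2 and 93.2 CPM with sh3 (log2 FC -0.23, SE 0.06, adjusted p = 0.0296). Both were lower in all KD libraries than in either control, as was Psme2b (log2 FC -0.29, SE 0.06, adjusted p = 0.0110). Psme1 lost its call in 4 of the 6 fits that left out a library, and Psme2 and Psme2b in 2 each.

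The test of sh3 against sh2 itself called 1 of the 47 genes (2.13%), against 13.7% of all genes. It was Psme4, which codes for PA200, with 259 and 247 CPM under sh2 and 328 and 314 CPM under sh3, at a log2 difference of 0.34 (SE 0.07, adjusted p = 0.00774). Its controls, at 292 and 258 CPM, lay below both sh3 libraries and overlapped those of sh2. With the replicate block 5 genes were called and 24.9% of all genes: Psme4 and Psme3 were higher under sh3, and the beta ring genes Psmb1, Psmb3 and Psmb4 were lower, by 0.14 to 0.16 on the log2 scale. Without either control library only Psmf1 remained among the called genes, and 2.34 or 3.16% of all genes were then called.

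**Figure D3:**
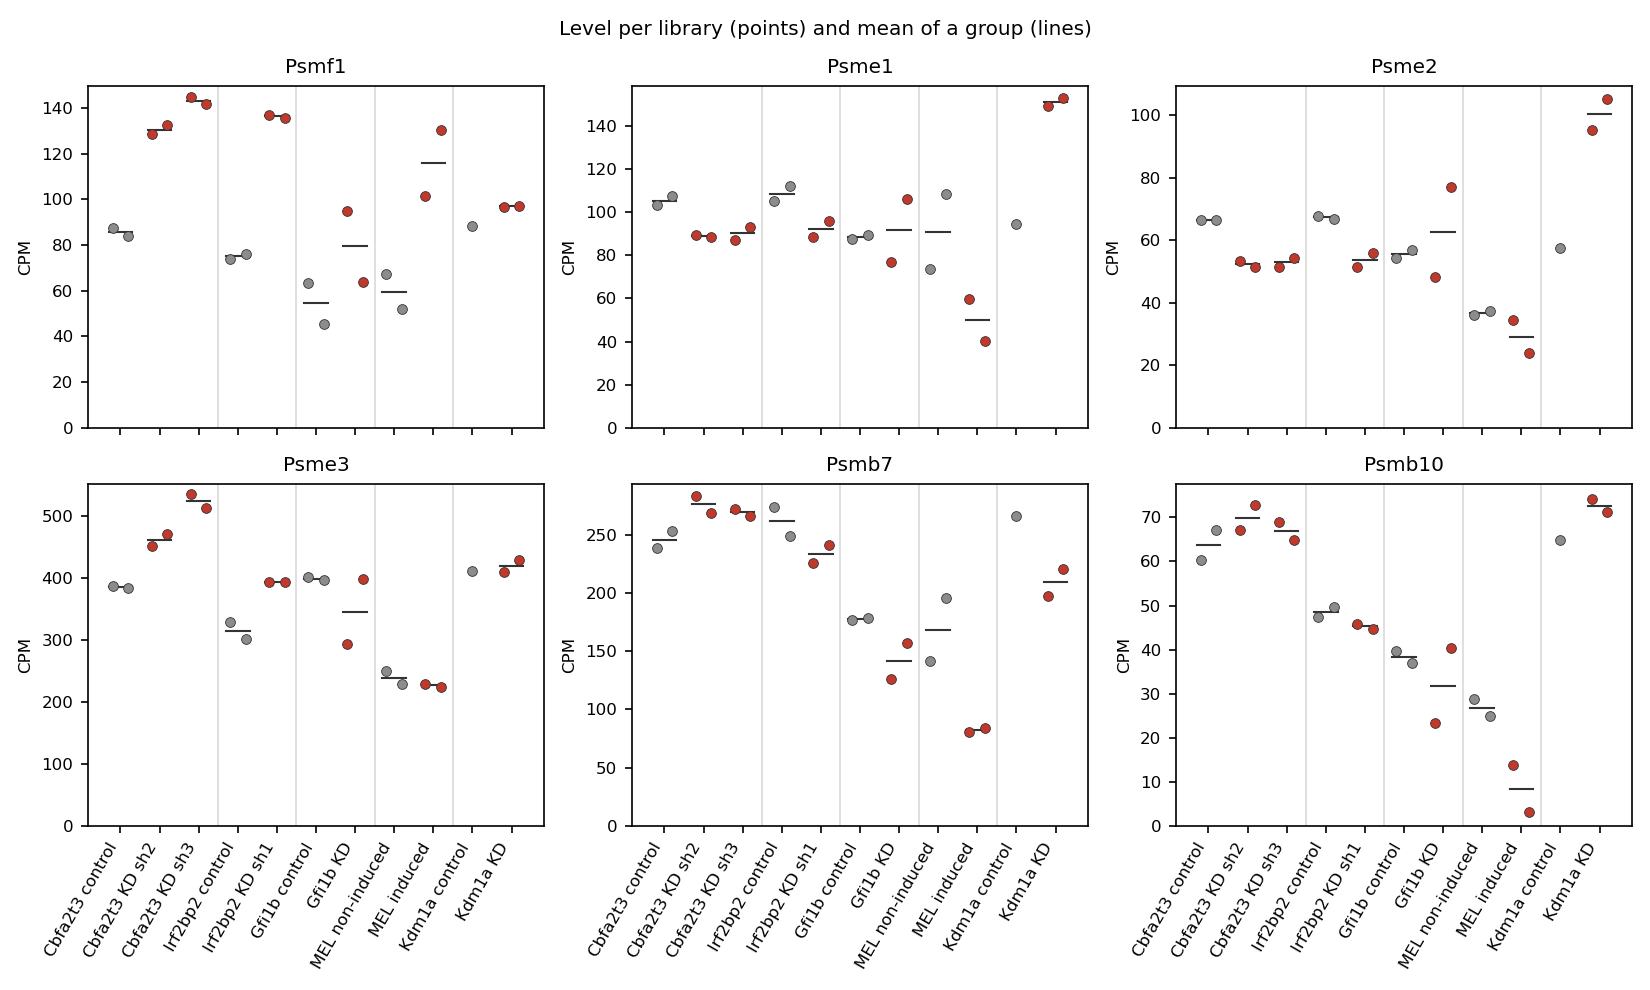
CPM of 6 genes in every RNA library (points; grey for controls, red for treated) with the mean of a group as a line, and comparisons split by vertical lines. Every treated library lies above the controls of its own comparison for Psmf1, narrowly so in the Gfi1b KD, and Psme1 is lower in the Cbfa2t3 KD, Irf2bp2 KD and MEL differentiation and higher in the Kdm1a KD.

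The second comparison asks the same for IRF2BP2. In the Irf2bp2 KD 14 of the 47 genes passed (29.8%), against 47.1% of the 12329 genes tested. Of them 5 rose (10.6%; 23.6% of all genes) and 9 fell (19.1%; 23.6% of all genes). Those that rose were Psmf1, the regulatory particle genes Psmd13 and Psmc3, Psmd9 and Psme3. Those that fell were the alpha ring genes Psma1, Psma3 and Psma4, the ATPase gene Psmc6, the chaperone genes Psmg1 and Psmd5, and Psme1, Psme2 and Psme2b. No beta ring gene passed. The median log2 FC was 0.01 for the core and 0.06 for the regulatory particle, beside -0.01 for all genes.

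Psmf1 stood at 73.9 and 76.2 CPM in the controls and at 137 and 136 CPM in the KD, a log2 FC of 0.86 (SE 0.08, 1.82-fold, adjusted p = 2.25e-07). Psmc6, an ATPase of the regulatory particle, stood at 202 and 187 CPM in the controls and at 113 and 119.9 CPM in the KD, a log2 FC of -0.74 (SE 0.08, adjusted p = 2.13e-06). These were the only members past a log2 FC of 0.5 in size in this comparison, and neither overlapped its controls. Psmc6 has no listed site within 5 kb.

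Psmd13, a scaffold subunit of the lid, had 117 and 127 CPM in the controls and 161 and 162 CPM in the KD (log2 FC 0.40, SE 0.08, adjusted p = 0.000734). The ATPase gene Psmc3 had 198 CPM in both controls and 242 and 229 CPM in the KD (log2 FC 0.25, SE 0.08, adjusted p = 0.0208). Genes of the same particle thus moved both ways.

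Psma3 had 169.7 and 165 CPM in the controls and 130.1 and 143 CPM in the KD (log2 FC -0.29, SE 0.08, adjusted p = 0.00865). Psma4 (log2 FC -0.26, SE 0.09, adjusted p = 0.0272) and Psma1 (log2 FC -0.26, SE 0.09, adjusted p = 0.0205) fell by a similar size. Psmg1, which with Psmg2 starts the alpha ring, had 112 and 98.3 CPM in the controls and 86.4 and 84.5 CPM in the KD (log2 FC -0.30, SE 0.09, adjusted p = 0.00938).

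Psme2 had 67.7 and 66.8 CPM in the controls and 51.3 and 56.0 CPM in the KD (log2 FC -0.32, SE 0.08, adjusted p = 0.00420), and Psme1 had 105 and 112 CPM against 88.3 and 95.8 CPM (log2 FC -0.24, SE 0.08, adjusted p = 0.0274). Psme3 had 328 and 302 CPM in the controls and 393 CPM in both KD libraries (log2 FC 0.32, SE 0.09, adjusted p = 0.00616). Psmd9 rose from 36.2 and 41.8 CPM to 49.3 and 50.8 CPM (log2 FC 0.36, SE 0.09, adjusted p = 0.00357). In all of these the KD libraries lay to one side of both controls, a condition for naming a gene by the size of its change. The count was 5 without KD-sh1 replicate 1 (31.4% of all genes called), where Psmf1, Psmd13, Psmd9, Psme3 and Psmc6 were still called, and 9 without control replicate 1 (38.5% of all genes). Of the 4 fits that left out a library, Psmg1 lost its call in 3 and Psmc3 in 2.

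The difference of the Irf2bp2 and Cbfa2t3 effects was tested in a joint fit, in which no control is shared. It called 4 of the 47 genes (8.51%), against 22.6% of all genes. Psmc6 fell by 0.71 more on the log2 scale in the Irf2bp2 KD (SE 0.13, adjusted p = 0.00237) than in the Cbfa2t3 KD, where its log2 FC was -0.03. Psmd13 rose by 0.41 more (SE 0.10, adjusted p = 0.0110). Psmb7, a catalytic subunit of the beta ring, had a difference of -0.31 (SE 0.10, adjusted p = 0.0374) between log2 FCs of -0.17 and 0.15, neither of which passed on its own. The fourth was Psmc3ip, at 2.39 to 4.36 CPM in these libraries, with a difference of -0.74 (SE 0.22, adjusted p = 0.0291). For Psmf1 the difference was 0.19 (SE 0.09, adjusted p = 0.175).

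Of the 16 genes with an IRF2BP2-only or shared site, 1 rose and 3 fell in the Irf2bp2 KD, and of the 30 without one 4 rose and 5 fell, where 23.6% of all genes rose and 23.6% fell, with median log2 FCs of 0.00 and 0.03. Psma5, with the 29-fold site, had 149 and 180.5 CPM in the controls and 160.1 and 171 CPM in the KD, with overlapping groups (log2 FC 0.01, adjusted p = 0.957). Of the 3 genes with an ETO2-only or shared site, Psmf1 and Psme3 rose in the Cbfa2t3 KD, where 5.47% of all genes rose, and of the 43 without one 1 rose and 2 fell. The third, Psmd4, had 723 and 743 CPM in the controls and between 666 and 791 CPM in the KD (log2 FC -0.0032, adjusted p = 0.986).

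The next comparison asks what happens to these genes when MEL cells mature. In MEL differentiation 16 of the 47 genes passed (34.0%), against 27.2% of the 11713 genes tested. Only Psmf1 rose (12.4% of all genes rose), and 15 fell (31.9%; 14.8% of all genes fell). Of the core genes 8 of 14 fell (57.1%) and of the regulatory particle genes 4 of 17 (23.5%), with median log2 FCs of -0.72 and -0.28 beside -0.02 for all genes. Both induced libraries lay below both non-induced libraries in 34 of the 47 genes, in 13 of 14 core and 13 of 17 regulatory particle genes, against 34.5% of all genes tested. The reads on the 47 genes went from 0.614% ± 0.00486 to 0.469% ± 0.0233 of the library (SD, n = 2 each).

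Psmb10, the immunoproteasome counterpart of Psmb7, had 28.7 and 24.8 CPM in the non-induced and 13.8 and 3.12 CPM in the induced libraries, a log2 FC of -1.66 (SE 0.49, adjusted p = 0.0235). Psmb7 itself had 141 and 195 CPM in the non-induced and 80.4 and 84.2 CPM in the induced libraries (log2 FC -1.03, SE 0.25, adjusted p = 0.00856). The induced replicates of Psmb10 thus differed from each other by more than those of Psmb7, and its log2 FC was -3.11 without induced replicate 1 and -0.95 without induced replicate 2. Psmb10 lost its call in 3 of the 4 fits that left out a library, as did Psmb5, Psmd14 and Psmg1, and Psmc5 and Psmf1 lost theirs in 2.

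The other catalytic subunits differed. Psmb5 went from 63.5 and 60.1 CPM to 39.4 and 29.6 CPM (log2 FC -0.84, SE 0.26, adjusted p = 0.0280). Psmb6 had 60.1 and 54.7 CPM and then 48.1 and 59.0 CPM, with overlapping groups (log2 FC -0.10, adjusted p = 0.798).

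In the regulatory particle, Psmd7, the partner of the deubiquitinase, went from 141 and 189.7 CPM to 84.1 and 72.7 CPM (log2 FC -1.08, SE 0.25, adjusted p = 0.00684). The ATPase gene Psmc5 went from 126 and 158 CPM to 82.2 and 53.0 CPM (log2 FC -1.07, SE 0.27, adjusted p = 0.0106). Psmd14, which codes for the deubiquitinase of the lid, went from 116 and 155 CPM to 77.0 and 75.4 CPM (log2 FC -0.83, SE 0.25, adjusted p = 0.0234). Psmc4 was the fourth that fell (log2 FC -0.74, SE 0.23, adjusted p = 0.0312), and Psmd4 did not pass, with 466 and 405 CPM against 308 and 314 CPM (log2 FC -0.48, SE 0.23, adjusted p = 0.138).

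Among the genes outside both particles, Psmg1 went from 68.4 and 63.8 CPM to 39.1 and 24.5 CPM (log2 FC -1.06, SE 0.28, adjusted p = 0.0135), and Psme1 from 73.6 and 108 CPM to 59.7 and 40.4 CPM (log2 FC -0.86, SE 0.28, adjusted p = 0.0349). Psmf1 went the other way, from 67.4 and 51.8 CPM to 102 and 130.2 CPM (log2 FC 0.96, SE 0.25, adjusted p = 0.0138). The cap gene Psme4 had 258 and 358 CPM in the non-induced and 391 and 512 CPM in the induced libraries and did not pass (log2 FC 0.55, SE 0.26, adjusted p = 0.125). The count of called genes was 0 without non-induced replicate 2, 2 without induced replicate 2 (Psmd7 and Psmb7), 9 without non-induced replicate 1 and 11 without induced replicate 1. The share of all genes called was then 12.5, 14.7, 13.4 and 27.8%.

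**Figure D4:**
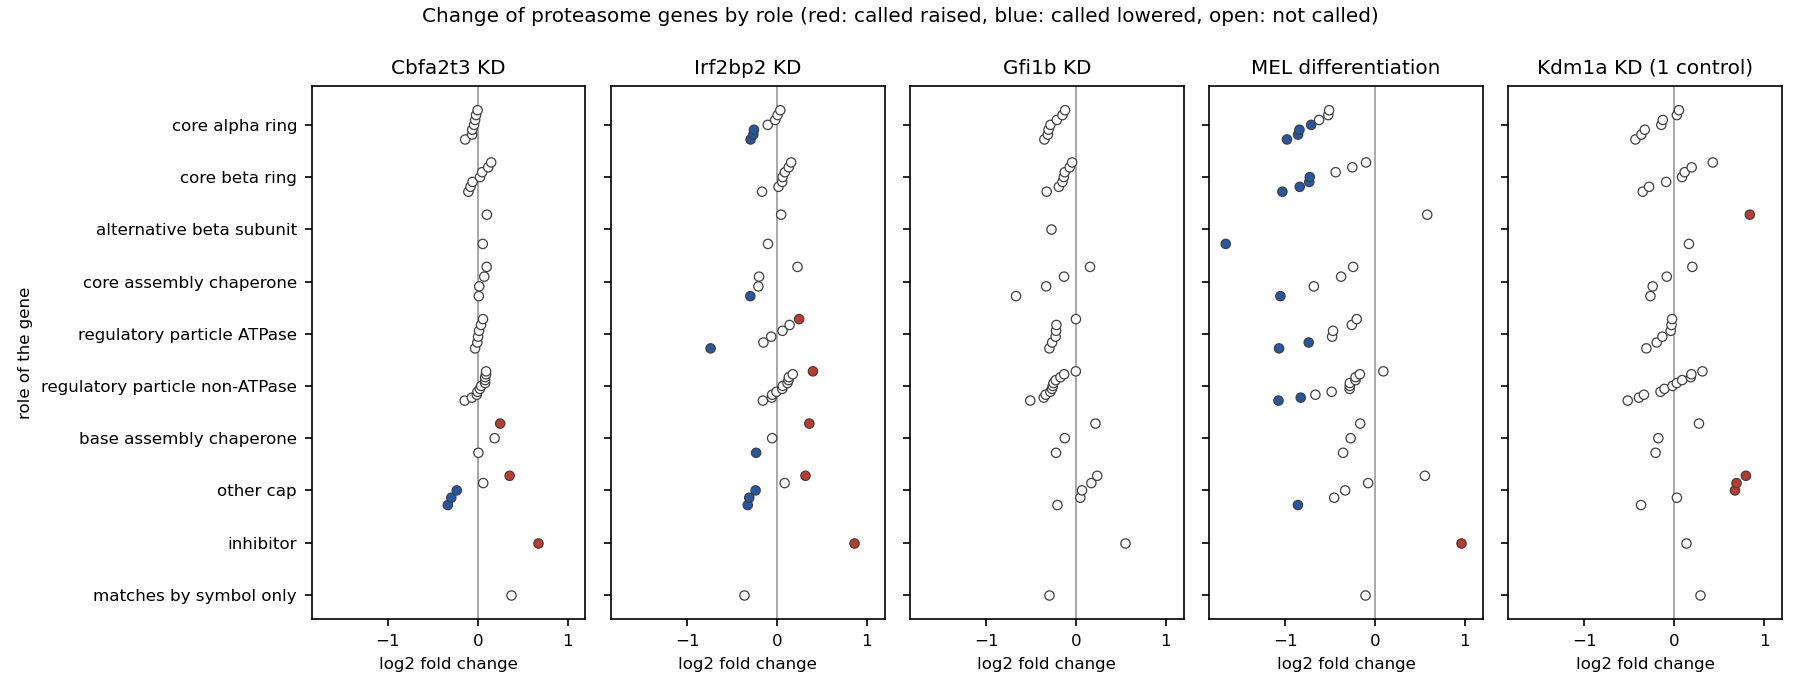
Log2 fold change of each gene in the 5 comparisons, one row per role, with called genes filled (red for raised, blue for lowered) and others open. In MEL differentiation the core genes lie between -1.03 and -0.10, and in the Cbfa2t3 KD no core or regulatory particle gene is filled.

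In the Gfi1b KD no gene passed in edgeR (0% of the 11190 genes tested), and so none of the 46 proteasome genes that passed the filter on low counts; Psmb11, at 6 to 11 counts per library, did not. The smallest adjusted p of a member was 0.699. At an unadjusted p under 0.05 there were 0 of these genes and 784 genes in all (7.01%), and DESeq2 called none of them and 59 genes in all. All 14 core and all 17 regulatory particle genes had a negative log2 FC, with medians of -0.17 and -0.25 beside 0.02 for all genes, of which 47.7% had a negative log2 FC. Without KD replicate 1, whose Gfi1b level goes against its label, 7 of the 14 core and 11 of the 17 regulatory particle genes were negative, with medians of -0.0010 and -0.10, against 50.8% of all genes. Both libraries labelled KD lay below both controls in 18 of the 46 genes, against 19.6% of all genes tested. Psmg2, a chaperone of the alpha ring, had 59.4 and 63.9 CPM in the controls and 29.2 and 48.6 CPM in the KD (log2 FC -0.67, SE 0.29, adjusted p = 0.699). Its log2 FC was -0.34 without KD replicate 1 and -1.10 without KD replicate 2. Psmf1 had 63.5 and 45.6 CPM in the controls and 95.1 and 63.7 CPM in the KD, with KD replicate 2 nearly equal to the higher control (log2 FC 0.54, SE 0.29, adjusted p = 0.721). For Psmf1 the log2 FC was 0.22 without KD replicate 1 and 0.78 without KD replicate 2.

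The labelled Gfi1b KD libraries differed from each other. In replicate 1 Psmb5 stood at 64.5 CPM, below the controls at 89.0 and 86.0 CPM, and in replicate 2 at 105 CPM, above them. Replicate 1 alone against both controls gave 23 lowered and 1 raised of the 46 genes, with Psmf1 as the one that rose and 9 core and 9 regulatory particle genes among those that fell; 14.1% of all genes were then lowered. Replicate 2 alone gave 1 raised (Psme2b, log2 FC 0.58, adjusted p = 0.0285) and none lowered, with 3.54% of all genes called. In both fits the lone KD library is assumed to vary as the controls do. The 5 erythroid markers summed to 884 and 967 CPM in the controls, to 983 CPM in the lower and 2448 CPM in the higher KD library, and Alas2, the erythroid enzyme of haem synthesis, had 924 CPM in replicate 1 against 8.36 and 13.1 CPM in the controls. The part of these differences in the values of the proteasome genes was not tested.

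In the Kdm1a KD, with 1 control library, no test is given as the result, and a gene was counted where each KD library lay on the same side of that control by at least 0.5 on the log2 scale. By this rule 4 of the 47 genes were raised and none lowered (8.51%), against 22.9% of the 12628 genes measured, of which 13.1% were raised and 9.8% lowered. The edgeR test with the 1 control called 23 of the 47, 9 raised and 14 lowered, against 24.0% of all genes raised and 24.5% lowered; the control is there assumed to vary as the KD libraries do. Psme2 had 57.5 CPM in the control and 95.2 and 105 CPM in the KD (log2 difference 0.80), and Psme1 had 94.5 CPM in the control and 149 and 153 CPM in the KD (0.68). Psme2b had a difference of 0.69, and the fourth, Psmb11, had 12 counts in the control and 29 and 19 in the KD. Psme1, Psme2 and Psme2b thus lay above their control here and fell in the Cbfa2t3 and Irf2bp2 KDs. Psmd7 was nearest to being lowered, with 307.5 CPM in the control and 208 and 221 CPM in the KD (log2 difference -0.52). The core and regulatory particle medians were -0.11 and -0.04.

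The ratio of core to regulatory particle counts within a library needs no scaling between libraries. It was between 0.736 and 0.806 in non-induced and between 0.660 and 0.670 in induced MEL cells, a log2 difference of -0.21 beside a spread within groups of 0.066 (SD). In the Irf2bp2 KD it was between 0.753 and 0.766 in the controls and between 0.722 and 0.736 in the KD (log2 difference -0.06). In the Kdm1a KD it was 0.745 in the control and 0.696 and 0.711 in the KD. These groups did not overlap. In the Cbfa2t3 KD (0.729 to 0.742 against 0.698 to 0.747) and the Gfi1b KD (0.718 to 0.728 against 0.715 to 0.761) they did, and the Cbfa2t3 sh3 libraries had a mean of 0.703 against 0.741 for sh2. Without Psmb4 and Psmd4, the most abundant gene of each particle, the difference went from -0.08 to 0.0018 in the Kdm1a KD, from -0.06 to -0.11 in the Irf2bp2 KD and from -0.027 to -0.049 in the Cbfa2t3 KD. The ratio was chosen with results known and is given with no test.

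**Figure D5:**
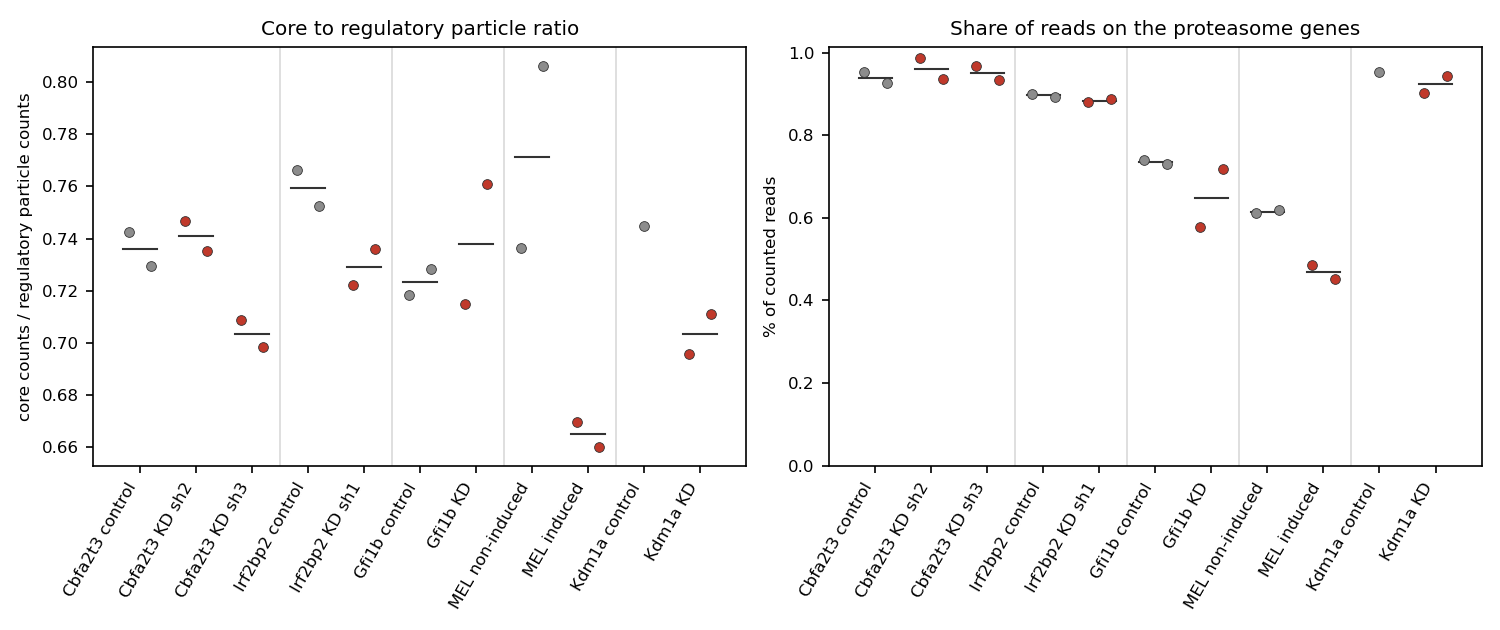
Ratio of core to regulatory particle counts (left; the axis does not start at 0) and share of counted reads on the 47 genes in percent (right) in every RNA library, with controls in grey, treated libraries in red and group means as lines. Induced MEL libraries have the lowest ratios, 0.660 and 0.670, and the lowest shares.

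Over the 4 comparisons with a test, 23 of the 47 genes were called in none, 14 in 1, 8 in 2 and 2 in 3, and no gene was called in both directions. Of the 11056 genes tested in each of the 4, 36.6% were called in none, 42.5% in 1, 16.3% in 2, 4.6% in 3 and 4.2% in both directions. The 2 called in 3 were Psmf1, raised in the Cbfa2t3 KD, the Irf2bp2 KD and MEL differentiation, and Psme1, lowered in the same comparisons. The 5 erythroid markers Gata1, Klf1, Tal1, Alas2 and Epor all rose in these comparisons too. Their summed level was 1100.4 to 1123 CPM in the Cbfa2t3 controls against 1614 to 1816 CPM, 939 to 1031 against 2391 to 2498 CPM in the Irf2bp2 KD and 769 to 969 against 2959 to 3117 CPM in MEL differentiation. Of the 3 megakaryocyte markers, 2 rose in the Cbfa2t3 KD, all 3 in the Irf2bp2 KD and 1 in MEL differentiation. Beside these marker counts, 5.47, 23.6 and 12.4% of all genes rose in the 3 comparisons. The part of erythroid maturation in the changes of the proteasome genes was not tested. In the Kdm1a KD, where Psmf1 had 88.2 CPM in the control and 96.8 and 97.1 CPM in the KD, the erythroid sum was 1096 CPM in the control and 811 and 815 CPM in the KD libraries.

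Proteasome partners outside the symbol rule were followed as a list of 12 genes, of which 11 were measured. The shares of all genes called, for reading the counts of this list and of those that follow, were 11.4% in the Cbfa2t3 KD, 47.1% in the Irf2bp2 KD, 27.2% in MEL differentiation and 22.9% in the Kdm1a KD. In the Cbfa2t3 KD 1 rose, Fbxo7, an F-box protein that binds PI31 (30.4 and 30.6 CPM against 36.3 to 50.1 CPM; log2 FC 0.49, adjusted p = 0.0471 in edgeR). DESeq2 called 3 of the 11, Fbxo7, Akirin2 and Ube3c, each higher in the KD, and it called 14.6% of all genes there. Fbxo7 also rose in the Irf2bp2 KD (log2 FC 0.59) and in MEL differentiation (log2 FC 1.19), the same comparisons in which Psmf1, the gene of PI31, rose. In the Irf2bp2 KD 3 of the 11 rose (Fbxo7, Adrm1 and Ube3c) and 2 fell (Uchl5, a deubiquitinase of the regulatory particle, at log2 FC -0.47, and AI314180). In MEL differentiation Fbxo7 rose and 3 fell, namely Pomp, the maturation factor of the core (log2 FC -0.77, adjusted p = 0.0277), Shfm1 (-0.91) and Uchl5 (-1.28). In the Kdm1a KD 1 was lowered, Uchl5, from 133 CPM to 50.1 and 54.8 CPM, and in the Gfi1b KD none was called.

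Of 11 genes of ubiquitin supply and substrate delivery, 10 were tested. In the Irf2bp2 KD 3 rose and 2 fell by edgeR, close to the share of all genes called there (47.1%): Nploc4 (log2 FC 0.36, adjusted p = 0.00162) and Ufd1l (0.31, adjusted p = 0.00564), partners of the segregase VCP, and Ubqln4 (0.23, adjusted p = 0.0271) rose, and the shuttle factors Rad23b (-0.23, adjusted p = 0.0395) and Ubqln1 (-0.25, adjusted p = 0.0215) fell. In the Cbfa2t3 KD, the Gfi1b KD and MEL differentiation edgeR and DESeq2 called 0 of the 10. DESeq2 called 14.6, 0.527 and 28.2% of all genes there. At an unadjusted p under 0.05 in edgeR there were 0, 0 and 1 of the 10. Over all genes there were 3289 of 12537, 784 of 11190 and 4608 of 11713. In the Kdm1a KD 0 passed the fold rule.

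Of 7 regulators of proteasome gene transcription and their partners, Nfe2l1, which codes for NRF1, was called in no comparison, with log2 FCs from -0.28 in MEL differentiation to 0.14 in the Irf2bp2 KD. In the Irf2bp2 KD Nfe2l2, which codes for NRF2, fell from 108 and 110.5 CPM to 38.7 and 38.8 CPM (log2 FC -1.50) and Ngly1, which activates NRF1, fell as well (-0.64), while the small MAF gene Mafk rose (0.86). In the Cbfa2t3 KD Mafk rose (0.33) and Bach1, a repressor that pairs with small MAFs, fell (-0.34). In MEL differentiation Bach1 rose (1.13). None of the 7 was called in the Gfi1b or Kdm1a KD.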

How the data were processed

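RNA-Seq reads of 21 libraries were mapped by the authors with Tophat2 to mm9 and counted per RefSeq gene with rpkmforgenes. The 5 deposited tables give raw counts and the authors' RPKM values per library, and also the authors' own DESeq2 log2 fold changes, p-values and adjusted p-values, which were not used. Tool names come from the study's methods and the submitters' processing notes. The deposited site list, called by the authors with Bowtie alignments and 3 peak callers (2 of which had to agree), gives the ratio of ChIP to IgG (fold) of each site. The classes of the list carry numbers only. The ETO2-only and shared classes were read from their sizes, which match those in the methods. The IRF2BP2-only class is the one that remained, and the methods give no size for it. The ChIP signal of LSD1 and GFI1B was not used here.

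Each table was tested on its own with edgeR 4.0.16 (limma 3.58.1, R 4.3.3): quasi-likelihood test, TMM scaling, filterByExpr, Benjamini-Hochberg adjustment over all genes tested, called at 0.05. CPM are counts scaled by the TMM-adjusted size of the library. The SE is the size of the log2 FC divided by the square root of F. Kdm1a differences are of log2 CPM with a prior count of 2. The script was tested on simulated data with 200 changed genes. The members and the gene lists were chosen with earlier results of these data known. Some genes of the lists are not reported here and are in no count or sum over a list. Given by value are Psmb5, Psmb6, Psmb7, Psmb10, Psmd4, Psmd14, Psme4, Psmf1 and Psmg1 in the comparisons where the text needs them. Also given are up to 5 called genes per direction with the largest change (3 for Kdm1a). In the tested comparisons these were taken only among genes whose treated libraries all lay on one side of all controls. For them that separation was fixed by the choice. Genes needed for a count or a site were added, chosen after their values were seen. Columns that match no sample numbered 0. Starts come from the GENCODE annotation of mm9 and promoters from RefSeq. DESeq2 1.42.0, other scalings and filters, a replicate block and leaving out each library were tried as alternatives. In the Cbfa2t3 table same-numbered libraries deviated together in all 3 pairs of groups (r of 0.12 to 0.25), so the block is given where it changed a call; the labels do not say what the numbers share. Proteins are not shown.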

Additional observations from a re-analysis of the deposited data

Results flagged for a closer look

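The effects of the Irf2bp2 and Cbfa2t3 KDs differed, by the test of the difference itself, for 4 proteasome genes. The log2 difference (Irf2bp2 effect minus Cbfa2t3 effect) was -0.71 for Psmc6, 0.41 for Psmd13, -0.31 for Psmb7 and -0.74 for Psmc3ip. For Psmc6 and Psmd13 the change was in the Irf2bp2 KD, with log2 FCs of -0.74 and 0.40 there and -0.03 and -0.01 in the Cbfa2t3 KD. For Psmb7 and Psmc3ip the effects had opposite signs, and Psmc3ip lies at the lowest level of these genes. Psme4 differed between the hairpins against Cbfa2t3, at a log2 difference of 0.34 (sh3 minus sh2).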

How the results depend on the processing

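Outside the leave-out fits, 33 of 43 summary values and 341 of 364 single-gene values kept their direction and their side of the threshold or moved little; of the single genes 15 lost and 3 gained the call, all in the same direction, and 5 changed sign. With a log2 FC of 0.5 asked for as well, the called proteasome genes were 1 in the Cbfa2t3 KD (5.74% of all genes) and 2 in the Irf2bp2 KD (22.5%). With sh3 alone 11 of 47 were called (29.7% of all genes) and with sh2 alone 7 (18.9%), and edgeR with the 1 Kdm1a control called 23 (48.5%). Genes that changed sign were not called: with sh2 alone Psmd4 was at 0.054, Psme4 at -0.12, Psmc6 at 0.022 and Psmd13 at 0.011, and with sh3 alone Psmb5 at -0.0026. The log2 difference of the core to regulatory particle ratio without the most abundant gene of each particle was -0.049 in the Cbfa2t3 KD, -0.11 in the Irf2bp2 KD and 0.0018 in the Kdm1a KD, and from summed RPKM -0.034 in the Irf2bp2 KD. At a fold at or above the median, 13.0% of the genes had a site. The cause of these shifts was not tested, beyond the fewer libraries or sites that a setting uses.

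Leaving out each library in turn gave 1 to 7 called genes in the Cbfa2t3 KD (2.34 to 12.9% of all genes), 5 to 13 in the Irf2bp2 KD (31.4 to 45.1%), 0 to 24 in the Gfi1b KD (0 to 29.9%), 0 to 11 in MEL differentiation (12.5 to 27.8%) and 4 to 5 in the Kdm1a KD, and ratio differences of -0.044 to -0.011 in the Cbfa2t3 KD. Each Kdm1a count there rests on 1 KD library and 1 control. No share of all genes is given for these Kdm1a counts, so no conclusion is drawn from their range. Log2 FCs that changed sign ranged from -0.10 to 0.045 (Psmc6), -0.043 to 0.018 (Psmd13), -0.043 to 0.036 (Psmd4), -0.026 to 0.15 (Psme4) and -0.036 to 0.057 (Psmg1) in the Cbfa2t3 KD, from -0.25 to 0.31 (Psme4), -0.46 to 0.27 (Psmb5), -0.17 to 0.0064 (Psmb6) and -0.74 to 0.069 (Psmb10) in the Gfi1b KD and from -0.24 to 0.030 (Psmb6) in MEL differentiation.

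Same-numbered libraries had deviations that correlated at r of 0.03 in the Irf2bp2 KD, 0.0015 in the Gfi1b KD and 0.20 in MEL differentiation. There, with 2 numbers and no shared batch in the labels, they were taken to share a number only. With the replicate block the called genes numbered 5 in the Cbfa2t3 KD (9.67% of all genes), 15 in the Irf2bp2 KD (50.8%), 0 in the Gfi1b KD (0%) and 19 in MEL differentiation (33.4%). In the Cbfa2t3 KD the block ended the call of Psmd9 and of no other proteasome gene. It also raised the genes called between sh3 and sh2 to 5, a fit chosen after seeing the data. Depth limits Psmb11 and Psmc3ip most, which have the fewest counts.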
